A study of Mus musculus with 8 samples.

Results

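Il12b (ENSMUSG00000004296) is 1 of the 26062 genes counted in 8 RNA libraries of mouse microglia, and it was chosen by its counts in these same libraries, being high at 3 days after nerve injury rather than at 1 day. Its own levels and fold changes are therefore given as a description, with no test. The cells were taken from the lateral geniculate nucleus, the thalamic relay that receives the axons of retinal ganglion cells, with magnetic beads against CD11b, a surface integrin of microglia and other myeloid cells. The mice were wild-type C57BL/6J males aged 2 to 3 months. The groups were uninjured mice (2 libraries), mice 1 day after crush of both optic nerves (3 libraries) and mice 3 days after the same crush (3 libraries). Whether each library holds RNA of 1 animal or of several is not stated in the labels, and the p-values speak only of the variation between the libraries, part or all of which may be technical.

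Il12b encodes p40, a secreted subunit shared by heterodimeric cytokines of the interleukin-12 family. Joined to p35, the product of Il12a, it forms interleukin-12, which acts on T cells and natural killer cells through Il12rb1 and Il12rb2, Jak2, Tyk2 and Stat4 and induces interferon gamma. Joined to p19, the product of Il23a, it forms interleukin-23, which acts through Il12rb1 and Il23r and Stat3. In macrophages and dendritic cells the gene is switched on by Toll-like receptors and CD40 through NF-kB, IRF and C/EBP factors, and interleukin-10 holds it down.

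The promoter is shown because the factors known to drive Il12b bind close to its start, and the promoter of Cxcl10, a chemokine gene that was also higher at 3 days, is set beside it. Both are RefSeq windows of the GRCm38.p6 build from 250 bases before to 50 bases after the transcription start. The Il12b window is chr11:44399813-44400112 on the plus strand, and the Cxcl10 window is chr5:92348840-92349139 on the minus strand. Each is written along its own gene, with motif matches in capitals.
Il12b: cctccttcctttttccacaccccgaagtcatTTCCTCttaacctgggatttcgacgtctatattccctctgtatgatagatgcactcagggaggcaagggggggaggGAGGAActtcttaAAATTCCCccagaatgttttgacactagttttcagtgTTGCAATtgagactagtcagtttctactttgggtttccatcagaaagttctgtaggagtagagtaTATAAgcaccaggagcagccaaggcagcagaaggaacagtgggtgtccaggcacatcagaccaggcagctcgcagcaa
Cxcl10: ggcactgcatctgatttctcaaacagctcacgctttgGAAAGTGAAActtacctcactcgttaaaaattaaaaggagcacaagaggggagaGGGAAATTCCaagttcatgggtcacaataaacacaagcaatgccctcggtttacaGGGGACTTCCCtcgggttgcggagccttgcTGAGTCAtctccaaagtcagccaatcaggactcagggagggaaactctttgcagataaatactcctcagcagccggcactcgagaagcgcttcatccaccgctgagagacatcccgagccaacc

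In the Il12b window the capitals mark, counted from the start, a C/EBP half-site (TTGCAAT) at position -93, an NF-kB half-site (GGGAATTT, read on the opposite strand) at -130, a PU.1 core (GAGGAA) at -143 and, on the opposite strand, at -219, and a TATA box (TATAA, gene strand only) at -28. All motifs but the TATA box were searched on both strands. Of 32841 promoter windows of this length, 2.22% held the C/EBP half-site, 0.947% the NF-kB half-site, 28.3% the PU.1 core and 17.5% TATAA. The Cxcl10 window held an interferon response element (GAAA, any 2 bases, GAAA) at -213, NF-kB sites (GGG, any 5 bases, CC) at -159 and, as overlapping matches, at -104 and -103, and an AP-1 site (TGANTCA) at -74. These letters were held by 3.44%, 50.8% and 7.81% of windows. The Il12b window had no match to those last 3 patterns.

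The libraries held 12700098 to 17994861 counts, with 18035 to 22395 genes detected and 13.6% to 30.3% of counts from mitochondrial genes, the highest shares being 28.9% and 30.3% in 3-day libraries 2 and 3. The defining microglial markers were present in every library: the 14 listed genes summed to 9068 to 11980 CPM in uninjured libraries, 12792 to 15916 at 1 day and 9117 to 10707 at 3 days. CPM is the count scaled to library size, here with TMM factors. The third 1-day library correlated more closely with an uninjured library (r = 0.926) than with either other 1-day library (up to 0.908), so results are also given without it. Markers of choroid plexus summed to 549 CPM in the lower and 5686 CPM in the higher uninjured library, 1.09 to 62.2 CPM at 1 day and 640 to 3710 CPM at 3 days. Sostdc1, a gene of that list, had 59.5 CPM in the first uninjured library and 5.87 CPM in the second. Endothelial markers summed to 1152 to 1342, 498 to 627 and 915 to 1036 CPM in the same order.

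Il12b was low in uninjured and 1-day microglia and was higher at 3 days in every library. The uninjured libraries held 64 and 50 reads of it, the 1-day libraries 78, 132 and 82, and the 3-day libraries 932, 648 and 1218. In TMM-scaled CPM these were 3.42 and 2.58 without injury, 6.08, 10.6 and 5.05 at 1 day, and 60.9, 48.2 and 98.3 at 3 days. No 2 groups overlapped, and the lowest 3-day library stood 4.56-fold above the highest 1-day library. Reads of Il12b came from exons that no other annotated gene shares.

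The group means were 3.00 ± 0.596 CPM without injury (SD, n = 2), 7.24 ± 2.95 CPM at 1 day (SD, n = 3) and 69.1 ± 26.0 CPM at 3 days (SD, n = 3). Against uninjured libraries the fitted log2 fold change at 3 days was 4.52 with a standard error of 0.46, a 23.0-fold difference. Between 3 days and 1 day it was 3.26 with a standard error of 0.36, or 9.57-fold. At 1 day against uninjured libraries it was 1.27 with a standard error of 0.41, or 2.40-fold. Without the third 1-day library the last 2 values were 3.05 and 1.47. Among the 17390 genes tested, the difference at 3 days against uninjured libraries was the 109th largest rise on the log2 scale, that between 3 days and 1 day the 653rd and that at 1 day the 979th.

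**Figure D1:**
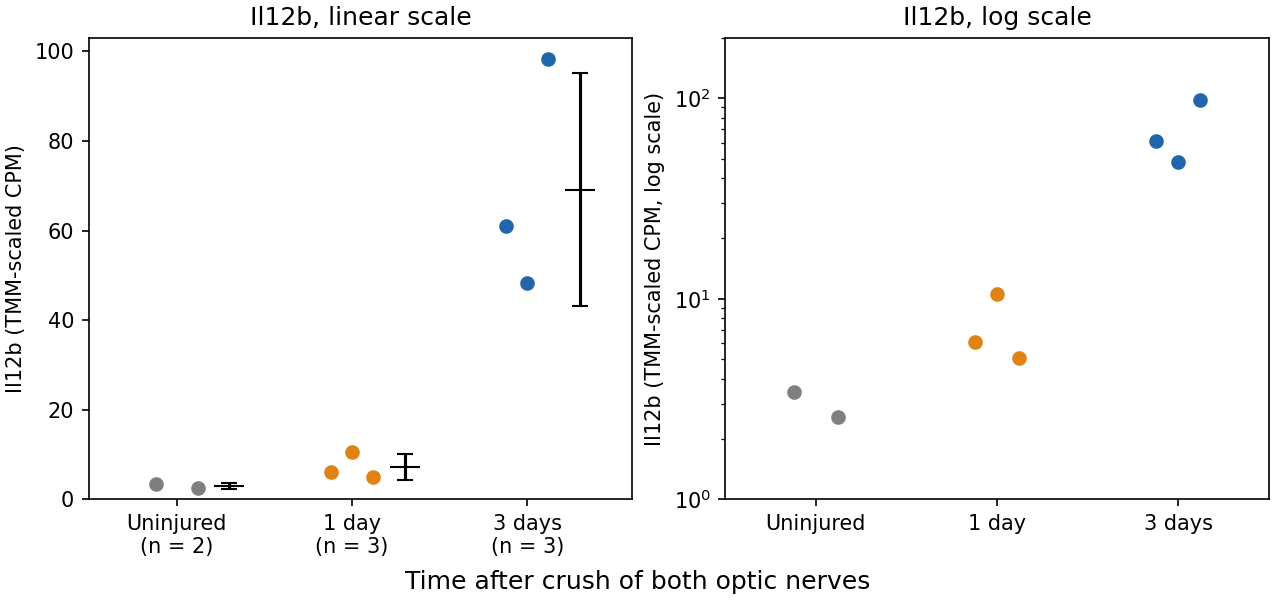
Il12b in each library, in TMM-scaled CPM on a linear axis and on a log axis, for uninjured mice and for 1 day and 3 days after crush; points are libraries and the lines are group means with SD. The 3-day libraries lie between 48.2 and 98.3 CPM, above all 5 other libraries, which lie between 2.58 and 10.6 CPM.

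A gene with the same ordering was not common: in 200 of the 17390 tested genes (1.15%) every 1-day library lay above both uninjured libraries and every 3-day library above every 1-day library. Every 3-day library lay above both uninjured libraries in 20.1% of tested genes and above every 1-day library in 16.1%. Every 1-day library lay above both uninjured libraries in 14.3%. Since Il12b was picked for this pattern, nothing is read from its place among these genes. By level per kilobase of exon it ranked 10758th of 17340 genes in uninjured libraries, 7263rd at 1 day and 842nd at 3 days. In RNA from a bulk sample, a change in the number of cells that make a transcript and a change in the amount per cell cannot be told apart.

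Within a group, Il12b in CPM had a coefficient of variation of 19.9% over the uninjured libraries, 40.7% over the 1-day libraries and 37.6% over the 3-day libraries. The third 3-day library was highest and the second lowest in that group, and the second 1-day library was highest at 1 day. Leaving out the third 3-day library gave log2 fold changes of 4.13 against uninjured libraries and 2.92 against 1 day. Leaving out the second 1-day library gave 0.84 for 1 day against uninjured libraries.

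The partner of Il12b in interleukin-12 was almost absent from these libraries. Il12a, which encodes p35, had 0 and 0 reads in the uninjured libraries, 0, 1 and 0 at 1 day, and 0, 1 and 0 at 3 days, too few to test. Summed over the uninjured libraries, a count of 0 allows up to 3 reads. These values put Il12b, per kilobase, at least 32.9-fold above Il12a without injury.

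The partner in interleukin-23 was detected mainly at 3 days. Il23a, which encodes p19, had 1 and 0 reads in the uninjured libraries, 0, 0 and 10 at 1 day, and 14, 10 and 54 at 3 days. Every 3-day library was above both uninjured libraries, while the lowest 3-day library equalled the highest 1-day library in reads. The difference did not pass the test at 3 days against uninjured libraries (log2 fold change 5.86, standard error 2.23, adjusted p = 0.195 by edgeR's quasi-likelihood test with Benjamini-Hochberg adjustment) or against 1 day (adjusted p = 0.222). The library with most Il23a reads at 3 days, the third, also had the most Il12b. Per kilobase, Il12b averaged 35.2 ± 13.2 CPM at 3 days and Il23a 0.893 CPM, a 39.4-fold difference in level. Without the third 3-day library, which held most of the Il23a reads, the difference was 75.1-fold, a setting added after the data were seen.

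The other family subunits did not share the 3-day level of Il12b. Ebi3, which pairs with the product of Il27 in interleukin-27, had 33 and 33 reads in uninjured libraries, 25, 40 and 42 at 1 day, and 59, 36 and 48 at 3 days. Its log2 fold change at 3 days was 1.0 against uninjured libraries (adjusted p = 0.607) and 0.43 against 1 day (adjusted p = 0.743), neither past the threshold of 0.05. Il27, which encodes p28, had 6 and 25 reads without injury, 6, 0 and 9 at 1 day, and 2, 6 and 1 at 3 days, too few to be tested. Per kilobase, the level of Il12b was 1.02-fold that of Ebi3 without injury, 1.65-fold at 1 day and 11.7-fold at 3 days.

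**Figure D2:**
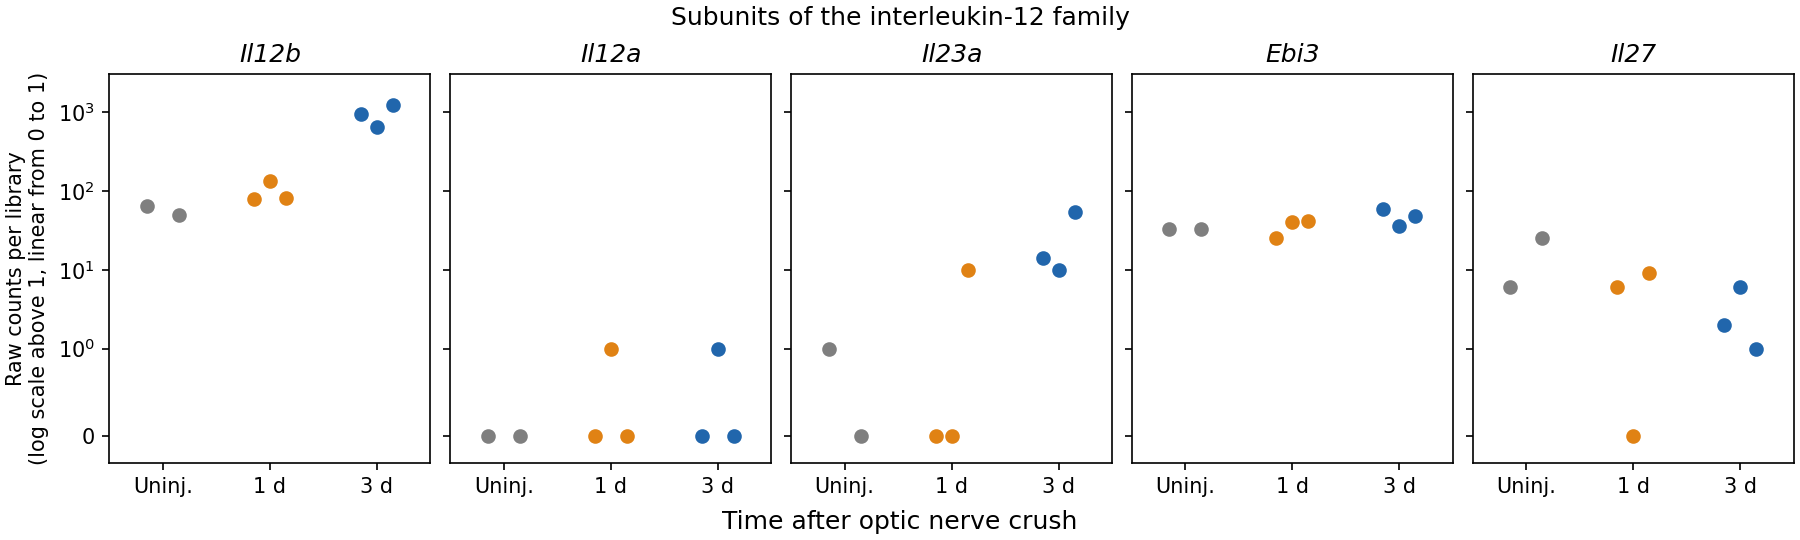
Raw reads per library of the 5 genes for interleukin-12 family subunits, on an axis that is linear from 0 to 1 and logarithmic above 1, by time after optic nerve crush; points are libraries. Il12b reaches 648 to 1218 reads at 3 days, Il23a 10 to 54, Ebi3 36 to 59, Il27 1 to 6 and Il12a 0 to 1.

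The wider pathway was followed in 55 listed genes beside Il12b, covering the other subunits, receptors and signal transducers, transcription factors that activate or restrain Il12b, receptors that induce it, and downstream responses. Of these, 46 passed the filter on low counts. At 3 days against uninjured libraries 3 rose and 1 fell, or 8.70% of the 46, beside 3.47% of all tested genes. Between 3 days and 1 day 3 were higher and 15 lower, or 39.1%, beside 11.0% of all tested genes. At 1 day against uninjured libraries 5 rose and none fell, or 10.9%, beside 1.77% of all tested genes. DESeq2 called 10 of the 46 there, and 816 genes in all, against 308 by edgeR. At an unadjusted p under 0.05, 16 were higher and none lower, for which no share of all genes is given. Without the third 1-day library the counts called by edgeR were 4, 15 and 7 in the 3 comparisons. The median log2 fold change of the 46 was 0.02 at 3 days and 0.36 at 1 day against uninjured libraries, and -0.38 between 3 days and 1 day, beside -0.00, 0.06 and 0.02 over all tested genes. In 14 of the 46 (30.4%) the effects against uninjured libraries had opposite signs at 1 day and at 3 days and the difference between the times was called, beside 7.59% of all tested genes. By the group means, 27 of the 46 had their highest mean at 1 day, 16 at 3 days and 3 without injury.

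Among the receptors and signal transducers of the family, 8 could be tested. Jak2, the kinase bound to Il12rb2, had 97.7, 121 and 114 CPM at 3 days and 174, 169 and 195 CPM at 1 day. Stat3, the factor activated by interleukin-23 and interleukin-10, had 294, 237 and 260 CPM at 3 days and 439, 437 and 401 CPM at 1 day. Neither gene's groups overlapped between the times. Both fell between the times, Jak2 by 0.69 on the log2 scale (SE 0.15, adjusted p = 0.00967) and Stat3 by 0.69 (SE 0.14, adjusted p = 0.00491). Without the first 3-day library Jak2 missed the threshold (adjusted p = 0.0560). Against uninjured libraries no member was called at 3 days by edgeR, DESeq2 or limma-voom, and none had an unadjusted p under 0.05. At 1 day edgeR called none, 3 had an unadjusted p under 0.05, and DESeq2 and limma-voom each called 1.

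Of the chains of the interleukin-12 receptor, Il12rb2 alone had enough reads to be tested, and it passed in no comparison. Il12rb1, the chain that binds p40, had 4 and 9 reads without injury, 0, 21 and 0 at 1 day, and 10, 3 and 0 at 3 days, and was not tested. Il12rb2 had 2.16, 8.12 and 2.02 CPM at 3 days and 10.5 and 6.13 CPM in uninjured libraries, groups that overlapped (adjusted p = 0.499). Its exons overlap those of Serbp1 on the opposite strand, and the strand setting of the counting is not given in the sources used here. Il6st, the chain that interleukin-27 shares with interleukin-6, had 448, 435 and 443 CPM at 3 days and 549 and 484 CPM in uninjured libraries, which did not overlap, and was not called (adjusted p = 0.516). Stat4, the main transducer of interleukin-12, averaged 2.43 ± 1.03 CPM without injury (SD, n = 2), 10.1 ± 6.41 CPM at 1 day (SD, n = 3) and 4.95 ± 3.36 CPM at 3 days (SD, n = 3), and passed in no comparison. It shares exonic bases with another annotated gene on the same strand.

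Of 9 listed activators of Il12b transcription, 3 rose at 1 day and 5 fell between 3 days and 1 day. Rel, the NF-kB subunit that Il12b expression in macrophages depends on, had 895, 964 and 909 CPM at 3 days, against 1988, 1978 and 1877 CPM at 1 day. Nfkb1, which encodes the p50 subunit, had 386, 401 and 382 CPM at 3 days, against 868, 862 and 883 CPM at 1 day. Nfkbiz, a nuclear cofactor of NF-kB, had 428, 545 and 519 CPM at 3 days, against 1125, 946 and 1205 CPM at 1 day. All 3 genes were lower at 3 days in every library, and the uninjured libraries (1094 and 1150 CPM of Rel, 505 and 462 of Nfkb1, 604 and 575 of Nfkbiz) lay above the 3-day libraries and below the 1-day libraries.

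Rel fell by 1.08 on the log2 scale between 3 days and 1 day (SE 0.12, adjusted p = 7.28e-05), Nfkb1 by 1.16 (SE 0.12, adjusted p = 5.83e-05) and Nfkbiz by 1.13 (SE 0.14, adjusted p = 0.000203). Irf5 and Irf8, interferon regulatory factors of myeloid cells, fell by 0.67 and 0.58 (adjusted p = 0.0189 and 0.0417), so 5 of the 9 listed activators fell and none was higher even at an unadjusted p under 0.05. The call of Irf5 was lost without the second 3-day library (adjusted p = 0.0525) or the third (0.0969), and that of Irf8 without any of 4 libraries (up to 0.188). The share of all tested genes that fell was 5.75%. At 1 day against uninjured libraries Rel rose by 0.80 (adjusted p = 0.00678), Nfkb1 by 0.85 (0.00613) and Nfkbiz by 0.89 (0.0114), the 3 of 9 that were called, while 0.610% of all tested genes rose. Without the first uninjured library none of these 3 rises was called (log2 fold changes 0.76, 0.91 and 0.92, adjusted p = 0.106, 0.0584 and 0.111), nor was that of Nfkbiz without the second (0.85, 0.0579). With 1 uninjured library left, the spread comes from the injured groups, and the lone library is assumed to vary like them. At 3 days against uninjured libraries edgeR, DESeq2 and limma-voom called none of the 9, and 2 were lower at an unadjusted p under 0.05.

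Of 8 listed genes that restrain Il12b, 5 fell between 3 days and 1 day and none rose, while 5.75% of all tested genes fell. Il10ra, the ligand-binding chain of the interleukin-10 receptor, had 156 and 176 CPM in uninjured libraries, 194, 204 and 185 CPM at 1 day, and 104, 102 and 76.1 CPM at 3 days. The 3-day libraries were below all others, and Il10ra fell by 0.82 on the log2 scale against uninjured libraries (SE 0.18, adjusted p = 0.0196) and by 1.04 against 1 day (SE 0.16, adjusted p = 0.00106). The first of these calls was lost without either uninjured library (adjusted p = 0.0981 and 0.164) or the third 3-day library (0.0827). Atf3, Bcl3, Bcl6 and Stat3 also fell between 3 days and 1 day, which completed the 5. Of these calls, that of Atf3 was lost without the third 3-day library (adjusted p = 0.0841) and that of Bcl3 without any of 6 libraries (up to 0.185). Bcl6, a transcriptional repressor, had 219, 187 and 183 CPM at 3 days and 382, 363 and 367 CPM at 1 day, a fall of 0.92 (adjusted p = 0.00159). At 1 day it rose by 0.95 against 223 and 162 CPM in uninjured libraries (adjusted p = 0.0129), a call lost without the second uninjured library (0.105). Il10 itself averaged 6.08 CPM without injury, 10.7 CPM at 1 day and 7.83 CPM at 3 days, with overlapping libraries.

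Of 11 receptors and adaptors that induce Il12b, Cd14 and Tlr2 were the members whose level was highest at 3 days and passed the test against uninjured libraries. Cd14, a co-receptor for bacterial lipopolysaccharide, had 207 and 244 CPM in uninjured libraries, 380, 638 and 381 CPM at 1 day, and 657, 641 and 793 CPM at 3 days, with no overlap between groups. It rose by 1.63 on the log2 scale at 3 days (SE 0.22, adjusted p = 0.000954) and by 1.05 at 1 day (SE 0.22, adjusted p = 0.0257), the second call being lost without the first uninjured library (adjusted p = 0.379), the second (0.0549) or the third 3-day library (0.0586). Between 3 days and 1 day Cd14 was not called (log2 fold change 0.58, edgeR adjusted p = 0.0637). Tlr2, a receptor for lipopeptides, had 308 and 339 CPM in uninjured libraries, 490, 583 and 422 CPM at 1 day, and 656, 719 and 679 CPM at 3 days, again with no overlap. It rose by 1.08 at 3 days against uninjured libraries (SE 0.16, adjusted p = 0.00191). Its rise between 3 days and 1 day was small (0.46, adjusted p = 0.0499) and was lost with most other settings, among them scaling by library size alone (adjusted p = 0.0658). At 3 days Tlr9, the adaptor Ticam1 and the interferon gamma receptor chain Ifngr1 were lower than at 1 day by the test, so that 3 of the 11 fell and 1 rose, beside 5.75% and 5.24% of all tested genes. All 3 calls were lost without the third 3-day library (adjusted p = 0.0805 for Tlr9, 0.0714 for Ticam1 and 0.0541 for Ifngr1), Tlr9 also without the second (0.0589) and Ticam1 without the first (0.0560).

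**Figure D3:**
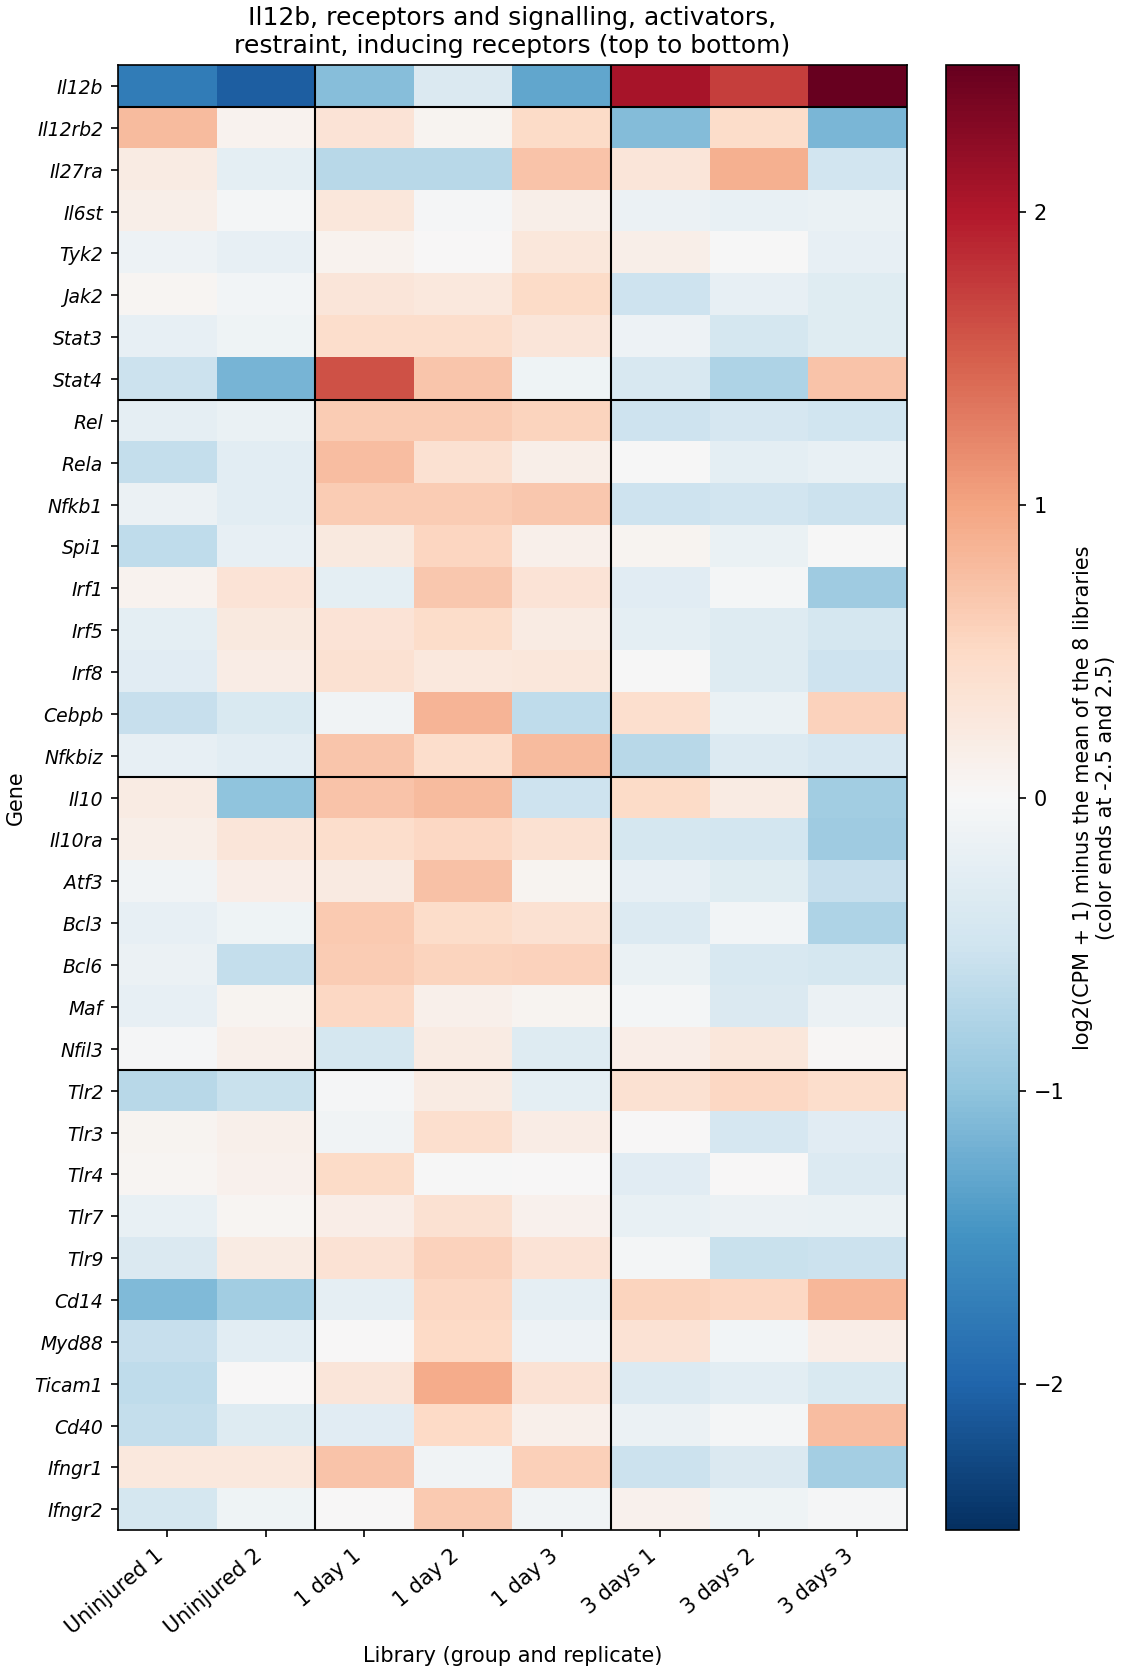
Il12b and 34 genes of its pathway in each library, as log2(CPM + 1) minus the gene's mean over the 8 libraries, with libraries in columns by time after crush and lines between gene groups; color ends at -2.5 and 2.5. Il12b is above its mean in the 3-day libraries, where Rel, Nfkb1, Nfkbiz and Stat3 are below their 1-day values.

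Among the genes listed as responses downstream of interleukin-12 and interleukin-23, Cxcl10 had the clearest 3-day rise. Whether either cytokine had a part in it was not tested. Cxcl10, an interferon-induced ligand of Cxcr3, had 61.8 and 67.5 CPM in uninjured libraries, 76.5, 96.9 and 83.1 CPM at 1 day, and 205, 290 and 283 CPM at 3 days. The 3-day libraries were above all others, and it rose by 2.00 on the log2 scale against uninjured libraries (SE 0.21, adjusted p = 0.000101) and by 1.60 against 1 day (SE 0.18, adjusted p = 9.17e-05). Cxcl11, a ligand of the same receptor, had 61, 138 and 23 reads at 3 days and 1, 14 and 1 at 1 day, and its rise (log2 fold change 3.68, SE 1.11, adjusted p = 0.0476) was lost when any 1 of 7 libraries, the second 1-day library excepted, was left out (adjusted p up to 0.231). Cxcl9, the other ligand, passed in no comparison.

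Ifng, the cytokine that interleukin-12 induces in lymphocytes, had 14, 28 and 0 reads at 3 days and 0 reads in all 5 other libraries. It was not called at 3 days against uninjured libraries (adjusted p = 0.253), and it shares exonic bases with another annotated gene on the same strand. Lymphocyte and natural killer cell markers summed to 4.22 to 5.51 CPM without injury, 3.57 to 6.66 CPM at 1 day and 4.03 to 9.15 CPM at 3 days. Il18, a cytokine that acts with interleukin-12, had 11.8, 13.2 and 12.4 CPM at 3 days and 30.5, 41.7 and 18.3 CPM at 1 day, and fell by 1.27 (adjusted p = 0.0351). That call was lost without any 1 of 5 libraries, which were the first 2 of 1 day and all 3 of 3 days (adjusted p up to 0.125).

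Il12b was picked as a late gene among cytokine genes said to peak mostly at 1 day. Of 47 other cytokine and chemokine genes that could be tested, 22 had their highest mean at 1 day (46.8%), 19 at 3 days (40.4%) and 6 without injury. Among the 26 interleukins and other cytokines these numbers were 13, 9 and 4, and among the 21 chemokine ligands 9, 10 and 2. Over all tested genes 36.0% had their highest mean at 1 day and 35.2% at 3 days. A 1-day maximum was thus the most frequent in the first list but not a majority of the 47, and chemokine ligands were split between the times.

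By the test, 9 of the 47 rose and none fell at 3 days against uninjured libraries, beside 2.49% of all tested genes that rose. At an unadjusted p under 0.05, 2 were lower, and DESeq2 called 2 lower. At 1 day 9 rose and 1 fell, beside 0.610% and 1.16% of all tested genes. Between 3 days and 1 day 7 rose and 6 fell, beside 5.24% and 5.75%. Without the third 1-day library the totals called were 9, 11 and 10 in the same order. Without the first uninjured library they were 4 at 3 days and 3 at 1 day against the remaining control.

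Among the cytokine genes with their highest mean at 1 day, some fell between the times and others did not pass that test. Il1a, which encodes interleukin-1 alpha, had 721, 924 and 804 CPM at 3 days, against 1953, 2418 and 1751 CPM at 1 day, and fell by 1.32 on the log2 scale (SE 0.15, adjusted p = 0.000135). The uninjured libraries had 641 and 795 CPM, a range that overlapped that of 3 days. Clcf1, a cytokine of the interleukin-6 family, had 47.2, 47.5 and 41.6 CPM at 3 days, against 142, 89.0 and 97.9 CPM at 1 day, and fell by 1.27 (adjusted p = 0.00244). Il1b, which encodes interleukin-1 beta, had 325, 277 and 369 CPM at 3 days, against 117 and 122 CPM in uninjured libraries, and rose at both times (log2 fold change 1.44 at 3 days, adjusted p = 0.00191, and 1.79 at 1 day, adjusted p = 0.00132). Its 1-day libraries, at 362, 546 and 329 CPM, overlapped those of 3 days. Tnf likewise rose at both times, with 744, 708 and 873 CPM at 3 days and 216 and 378 CPM without injury, but not without the first uninjured library (adjusted p = 0.146 at 3 days and 0.166 at 1 day) or, at 3 days, the third 3-day library (0.0669).

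The genes that rose at 3 days over both uninjured and 1-day libraries were chemokines: Ccl5, Ccl6, Ccl9 and Cxcl10, 4 of the 47 (8.51%), while 282 of all 17390 tested genes did so (1.62%). Ccl5, a chemokine that draws T cells and monocytes, had 22.1 and 19.7 CPM without injury, 58.6, 46.1 and 32.4 CPM at 1 day, and 110, 98.6 and 116 CPM at 3 days. It rose by 2.37 against uninjured libraries (SE 0.27, adjusted p = 0.000219) and by 1.25 against 1 day (SE 0.22, adjusted p = 0.00273). Ccl6, a mouse chemokine of myeloid cells, had 120, 119 and 170 CPM at 3 days, against 28.4, 52.2 and 24.5 CPM at 1 day, and rose by 1.96 (SE 0.27, adjusted p = 0.000459) and by 2.31 against uninjured libraries (adjusted p = 0.001). Ccl9, a ligand of Ccr1, had 338, 338 and 447 CPM at 3 days, against 243, 282 and 225 CPM at 1 day, and rose by 0.58 (adjusted p = 0.0284), a call lost without the first 1-day library (adjusted p = 0.0754), the third (0.0940) or the third 3-day library (0.157). Its rise against uninjured libraries (1.21, adjusted p = 0.00191) was lost without the first of them (0.0549). The groups of all 4 genes did not overlap between the times. The log2 fold change of Il12b between 3 days and 1 day, 3.26, stands beside these as a description.

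**Figure D4:**
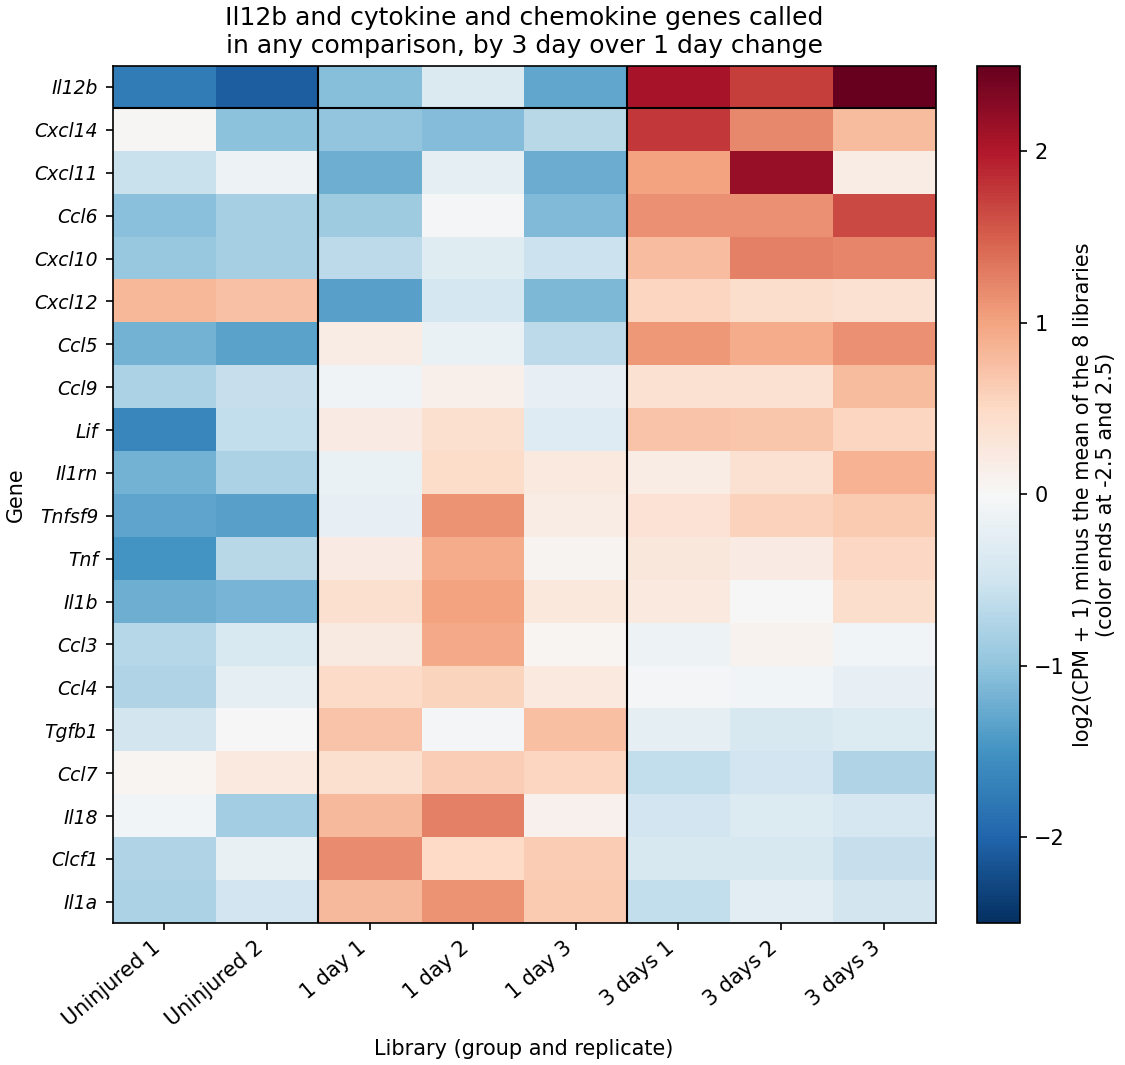
Il12b and 19 other cytokine and chemokine genes in each library, as log2(CPM + 1) minus the gene's mean over the 8 libraries, with libraries in columns by time after crush; color ends at -2.5 and 2.5. Il1a and Clcf1 are highest at 1 day, and Ccl5, Ccl6, Ccl9 and Cxcl10 at 3 days with Il12b.

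The genes most like Il12b were taken as those with the highest Pearson correlation of log2 CPM with it over the 8 libraries, among the 10243 tested genes whose highest group mean reached 5 CPM. All points share the same libraries and depth, so the correlations are descriptions. The closest were Sdf2l1, a chaperone of the endoplasmic reticulum (r = 0.993), and Cst7, which encodes cystatin F, an inhibitor of lysosomal cathepsins (r = 0.991). They were followed by Psmb1, a proteasome subunit (0.989), Ankrd52, a regulatory subunit of a protein phosphatase (0.988), Hmgb2, a chromatin protein (0.984), Dynlrb1, a dynein light chain (0.984), Nomo1, an endoplasmic reticulum membrane protein (0.984), and Uggt1, which tests glycoprotein folding (0.983). Pkm, pyruvate kinase (0.983), Ticrr, which acts in the start of DNA replication (0.980), Pcna-ps2, a pseudogene copy of Pcna whose reads may be shared with it (0.980), and Ndufa8, a subunit of respiratory complex I (0.979), completed the 12. Correlation does not measure the size of a change. At 3 days against uninjured libraries the log2 fold change was 0.59 for Uggt1 and 4.52 for Il12b. Uggt1 and Pcna-ps2 were called in no comparison. Without the third 3-day library, Psmb1, Ankrd52, Hmgb2, Dynlrb1, Nomo1 and Ndufa8 lost their calls at 3 days against uninjured libraries.

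Sdf2l1 had 18.7 and 20.3 CPM without injury, 28.0, 43.0 and 26.6 CPM at 1 day, and 113, 81.2 and 140 CPM at 3 days. Its order within the 3-day group (the third library highest and the second lowest) and within the 1-day group (the second library highest) was that of Il12b. Cst7 had 2.94 and 2.11 CPM without injury, 3.97, 7.86 and 3.39 CPM at 1 day, and 23.2, 26.8 and 30.1 CPM at 3 days. Leaving out the third 3-day library, r was 0.990 for Sdf2l1 and 0.992 for Cst7. Both genes were picked by r over these same libraries, so neither the order nor these values adds support for a likeness.

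**Figure D5:**
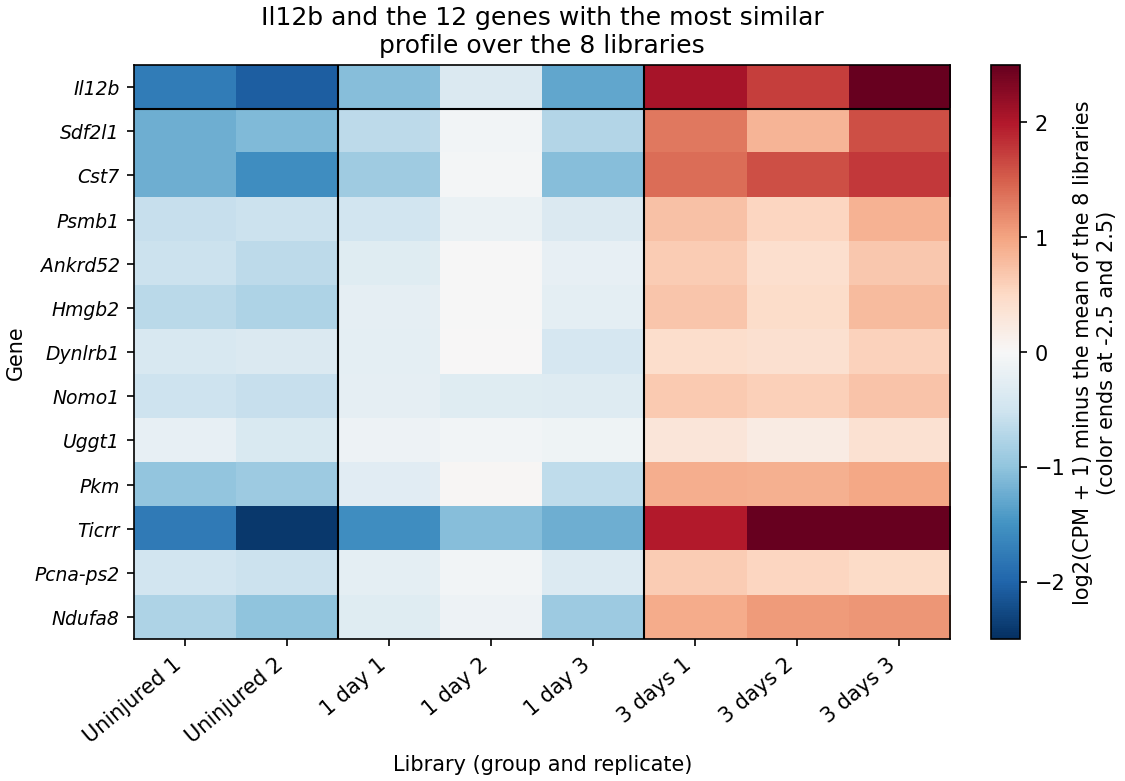
Il12b and the 12 genes with the most similar profile in each library, as log2(CPM + 1) minus the gene's mean over the 8 libraries, with libraries in columns by time after crush; color ends at -2.5 and 2.5. Il12b and the others are above their mean in the 3-day libraries and below or close to it in the others, and Il12b and Ticrr have the widest range.

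Listed genes of other microglial states moved at the same time. Of 20 genes of disease-associated microglia, 10 rose and none fell at 3 days against uninjured libraries, and 10 rose and none fell against 1 day, beside 2.49% and 5.24% of all tested genes that rose in those comparisons. DESeq2 called 14 and 12 higher and none lower, beside 818 and 1392 higher genes in all. Lpl, lipoprotein lipase, the fat-hydrolysing enzyme on that list, had 52.2 and 44.6 CPM without injury, 54.5, 106 and 36.4 CPM at 1 day, and 892, 1202 and 1275 CPM at 3 days. Its 3-day libraries were far above all others, and it rose by 4.54 on the log2 scale against uninjured libraries (SE 0.42, adjusted p = 0.000166). Of 20 mitosis genes 15 rose at 3 days against uninjured libraries and 19 against 1 day, and none fell, beside the same shares. The part of either list in the level of Il12b was not tested.

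Dendritic cells are the best known source of p40, and beads against CD11b would also hold some of them. Of their 15 listed markers, edgeR, DESeq2 and limma-voom called none at 3 days against uninjured libraries, while at an unadjusted p under 0.05 there were 2 higher and 2 lower genes, and 1, Fscn1, fell against 1 day. Their summed level was 287 to 369 CPM without injury, 384 to 420 CPM at 1 day and 275 to 312 CPM at 3 days. Fscn1 alone had 103 and 165 CPM without injury, 254, 206 and 196 CPM at 1 day, and 124, 115 and 106 CPM at 3 days. The sum thus follows this 1 gene in large part. None of the 15 was at 0 in all libraries. Flt3, a receptor that defines dendritic cells, had 15, 20 and 68 reads at 3 days and 66 and 23 in uninjured libraries. Ccr7, the homing receptor of mature dendritic cells, had 15.3 and 24.2 CPM without injury, 14.1, 44.9 and 16.0 CPM at 1 day, and 39.1, 44.7 and 37.8 CPM at 3 days, and was not called (adjusted p = 0.254 at 3 days against uninjured libraries). Both were singled out after their values were seen.

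Monocyte markers summed to 711 to 742 CPM without injury, 405 to 459 CPM at 1 day and 455 to 639 CPM at 3 days. Most of each sum was Fn1, at 558 and 591, 238 to 262 and 342 to 521 CPM in the same order. By edgeR, Fn1 fell at 1 day (log2 fold change -1.20, adjusted p = 0.00324) and rose between 3 days and 1 day (0.73, adjusted p = 0.00878). At 1 day the median log2 fold change of the tested markers was 0.32, with 6 higher than in uninjured libraries. At 3 days against uninjured libraries the median was -0.54, with 2 higher. Between 3 days and 1 day the median was -1.10, with 2 higher, and F13a1 fell (log2 fold change -1.07, edgeR adjusted p = 0.00337). Of the 10 markers 8 could be tested. At 3 days 1 of them, F13a1, fell against uninjured libraries (log2 fold change -0.92, adjusted p = 0.0309), a call lost without either uninjured library (0.149 and 0.212) or the first or the third 3-day library (0.0944 and 0.142). Border macrophage markers summed to 525 to 663, 486 to 708 and 368 to 457 CPM in the same order, and neutrophil markers to 35.0 to 42.5, 55.3 to 146 and 20.1 to 45.9 CPM. Of the 14 microglial markers 3 fell at 3 days against uninjured libraries, Itgam, P2ry12 and Siglech, and 6 fell against 1 day. The shares of all tested genes that fell were 0.983% and 5.75%. At 1 day 12 of the 14 were higher than in uninjured libraries, 1 of them by the test, beside 0.610% of all tested genes. The call of Itgam at 3 days against uninjured libraries was lost without the first uninjured library (adjusted p = 0.336), the first 3-day library (0.0667) or the third (0.0738), and that of Siglech without the second uninjured library (0.260), the first 3-day library (0.0566) or the third (0.0855). Itgam, which encodes CD11b, the target of the beads, had 597 and 419 CPM without injury, 1366, 1133 and 1347 CPM at 1 day, and 304, 294 and 297 CPM at 3 days, with no overlap. It rose by 1.34 on the log2 scale at 1 day (SE 0.17, adjusted p = 0.00173) and fell by 2.10 between 3 days and 1 day (SE 0.15, adjusted p = 2.57e-06), and it shares exonic bases with another annotated gene on the same strand. The part of any of these cells in the Il12b level was not tested.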

How the data were processed

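RNA was measured in 8 libraries of CD11b bead-purified microglia. The deposited values are raw counts per Ensembl gene, made by the authors with FastQC, STAR and HTSeq on the mouse build mm9 per the submitters' processing notes, with versions, annotation and strand setting not given in the sources used here. Of 26062 IDs, 25939 matched a symbol in GENCODE M21, which also gave exonic lengths and overlaps. The others held 0.117% of counts and were kept. RefSeq promoters are on GRCm38.p6.

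Counts were tested with edgeR 4.0.16 (R 4.3.3): filterByExpr, which left 17390 genes, then TMM factors and a quasi-likelihood model (robust) with a mean for each group over the 8 libraries, with Benjamini-Hochberg adjustment over all tested genes at 0.05. Standard errors are the log2 fold change divided by the square root of F. The biological coefficient of variation was 51.1%. The procedure was also run on counts simulated from its own fitted dispersions. That run cannot show how it handles outlying libraries, and nothing is read from it. Libraries of a group differed beyond sampling noise (chi-square per degree of freedom 32.2 to 66.4). Alternatives were DESeq2 1.42.0, limma-voom (limma 3.58.1), other scalings and filters, a replicate block, 2-group fits and leaving out each library. Named genes were all subunits, receptors and signal transducers (1 of the last counts in the totals but is not reported here), up to 6 called genes with the smallest p per list (or the 3 most abundant where none was called), the 12 genes most like Il12b and its 3 nearest protein-coding neighbours on each side. Further members are named where they complete a count or were singled out. Il12b and the lists were chosen with earlier results of these data known.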

Additional observations from a re-analysis of the deposited data

Results flagged for a closer look

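For 14 pathway genes the effects against uninjured libraries lay on opposite sides of 0 at 1 day and at 3 days, and the difference between the times itself passed the test (edgeR, Benjamini-Hochberg adjustment over all genes). They were 30.4% of the 46 tested pathway genes, beside 7.59% of all tested genes. In 13 of them the effect was upward at 1 day and downward at 3 days, although most of these separate effects did not pass on their own. That direction was also the more frequent over all tested genes, in 860 of the 1320 that met the same rule. The difference, as the log2 fold change at 3 days minus that at 1 day, was -1.16 for Nfkb1, -1.13 for Nfkbiz, -1.08 for Rel, -0.67 for Irf5 and -0.58 for Irf8 among the activators of Il12b. It was -1.04 for Il10ra, -0.72 for Atf3 and -0.90 for Bcl3 among the genes that restrain it. It was -1.03 for Ifngr1, -0.89 for Ticam1 and -0.80 for Tlr9 among the inducing receptors and adaptors, and -0.69 for Jak2 and -0.69 for Stat3 among the signal transducers. Cxcl11 went the other way, with a difference of 3.68. Its call was lost with limma-voom, and its exons overlap those of another annotated gene on the opposite strand.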

How the results depend on the processing

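The log2 fold changes of Il12b kept their direction under every alternative run. Leaving out 1 library gave 4.13 to 4.73 at 3 days against uninjured libraries, 2.92 to 3.63 between 3 days and 1 day, and 0.84 to 1.48 at 1 day, and the other settings gave 4.35 to 4.52, 3.23 to 3.28 and 1.12 to 1.26. Counts of called genes moved more. At 3 days against uninjured libraries 604 genes were called, 1308 with DESeq2, 1345 in a fit of those groups alone, and 108 (without the first uninjured library) to 982 with 1 library left out. Between 3 days and 1 day it was 1912, and 747 (without the third 3-day library) to 2362. At 1 day it was 308, with 816 by DESeq2, 110 in the 2-group fit and 39 (without the first uninjured library) to 368. Higher genes were 71.7% of calls at 3 days and 34.4% at 1 day, against 56.5% and 16.5% with library size alone, which moved the median of all genes at 3 days to -0.15, and 53.3% at 1 day by limma-voom. Of the 46 pathway genes, 4, 18 and 5 were called at 3 days, between the times and at 1 day. With 1 library left out these were 3 to 5, 8 (without the third 3-day library) to 18, and 1 (without the first uninjured library) to 7. At 1 day DESeq2 called 10, limma-voom 8 and the 2-group fit 2. Of the 47 cytokine and chemokine genes 9, 13 and 10 were called, with 4 to 11, 7 to 14 and 3 to 11 when 1 library was left out, the low ends without the first uninjured library against uninjured and without the third 3-day library between the times, and 3 at 1 day in the 2-group fit. Deviations of same-numbered libraries from their group means had correlations of -0.060 to 0.091. With 2 or 3 libraries in a group this cannot exclude a pairing by number, and the labels state none. With a replicate block 424, 1700 and 301 genes were called, 3, 16 and 5 pathway genes, and 9, 13 and 11 cytokine genes, and Il12b was at 4.44, 3.23 and 1.21. Over the named genes, 226 of 2015 alternative values of called differences lost the call and none reversed, while 46 values of uncalled differences became called in the same direction. The losses were uneven. At 1 day against uninjured libraries, only Cxcl12, Fn1, Il1a, Il1b, Itgam and Slco1c1 among the named genes kept the call under every alternative. With 2 uninjured libraries, and few reads of Il12a, Il23a, Il27 and Ifng, depth and replicate number limit what could be detected for the partners of Il12b.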

Other observations

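The protein-coding genes nearest to Il12b on its chromosome were not called with it. Ublcp1, a phosphatase of the proteasome, lies 40538 bases away and Rnf145 and Ebf1 beyond it, and Ttc1 and Pwwp2a lie on the other side beyond Adra1b, which had too few reads to test. Of the 5 that were tested, edgeR called none in any comparison, nor did DESeq2 or limma-voom, while 1 had an unadjusted p under 0.05 in each comparison, and the lowest adjusted p was 0.176, for Ebf1 at 3 days against uninjured libraries. Distances are those of GENCODE M21.

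Cxcl12, a chemokine of endothelial and stromal cells, had 123 and 115 CPM without injury, 26.4, 50.3 and 31.2 CPM at 1 day, and 100, 93.5 and 89.6 CPM at 3 days. At 1 day it fell by 1.72 on the log2 scale (SE 0.24, edgeR adjusted p = 0.00301), and the endothelial markers moved the same way, with 7 of 10 lower at 1 day by the test, beside 1.16% of all tested genes. Of those 7, the calls of Pecam1, Cdh5, Flt1, Ly6c1 and Tek were lost when 1 of the uninjured libraries was left out (adjusted p up to 0.419). The part of endothelial RNA in it was not tested.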
